A study of Schizosaccharomyces pombe with 37 samples.

Results

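The noncoding RNAs of fission yeast (*Schizosaccharomyces pombe*) whose identifier starts with SPNCRNA and whose name does not mark them as antisense to a gene were followed in 9 mutant strains and in wt. These are 891 of the 6996 features in the table. The other 636 SPNCRNA features are named as antisense to a gene and are not members. Members were taken by identifier and name alone, with no measured value. The mutants were yth1-R59C and pfs2-F115H (point mutations), ssu72D, dis2D, ppn1D and swd22D (deletions by their labels), and PAS-T4A, PAS-T4C and PAS-T4G, all set against wt (SPB426), with 3 libraries of total RNA each and 30 in all. All strains, wt included, were h- leu1-32 ura4-D18 ade6-704 and carried the *trp1+::ade6+* reporter, and all cultures grew exponentially in YES medium at 30 °C. The PAS strains change 1 base of the reporter's AAUAAA polyadenylation signal, to AAUUAA in PAS-T4A, AAUGAA in PAS-T4C and AAUCAA in PAS-T4G. Each mutant is 1 strain, and nothing in the labels says whether its replicates are separate cultures, so the p-values measure the spread between these libraries, which may be technical.

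The cleavage and polyadenylation factor (CPF) cuts nascent RNA at the 3′ end, adds the poly(A) tail and takes part in the termination of RNA polymerase II. Yth1 and Pfs2 belong to its poly(A) polymerase module, which reads the AAUAAA signal, and Ssu72, Dis2, Ppn1 and Swd22 to its phosphatase module. Many noncoding RNAs of fission yeast are short-lived: the RNA-binding protein Mmi1 recognises UNAAAC repeats in meiotic and noncoding transcripts and directs them to the nuclear exosome. The members include structural RNAs (*srp7*, the RNA of the signal recognition particle, *mrp1* and *rrk1*, the RNAs of RNase MRP and RNase P, and *ter1*, the telomerase RNA), RNAs bound by Mmi1 (*sme2*, which gives meiRNA, and the *nam* RNAs), RNAs transcribed ahead of phosphate genes (*nc-pho1*, *nc-tgp1*), and 806 RNAs known here by identifier only.

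The sequences shown are those of RNAs that the results turn on, read from the RefSeq assembly ASM294v3, in which 816 of the 891 members were placed by identifier or synonym. The first set is the stretch of 150 bases with most UNAAAC letters in 3 RNAs linked to Mmi1 or to phosphate genes, written as DNA with each TNAAAC in capitals. They lie at II:4465798-4465947 on the minus strand (*nam3*), II:4446702-4446851 on the plus strand (*nc-pho1*) and II:339346-339495 on the minus strand (*sme2*).
nam3: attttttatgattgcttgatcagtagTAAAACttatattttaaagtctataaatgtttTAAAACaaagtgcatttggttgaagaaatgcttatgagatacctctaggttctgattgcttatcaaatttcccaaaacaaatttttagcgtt
nc-pho1: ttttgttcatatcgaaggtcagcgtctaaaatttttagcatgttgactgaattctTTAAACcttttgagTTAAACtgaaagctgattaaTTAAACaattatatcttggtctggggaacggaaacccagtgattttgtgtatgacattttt
sme2: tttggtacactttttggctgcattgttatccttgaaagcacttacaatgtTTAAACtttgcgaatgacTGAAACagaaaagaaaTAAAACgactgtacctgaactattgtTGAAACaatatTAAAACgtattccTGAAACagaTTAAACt
The windows hold 2, 3 and 7 matches in that order. Of the 788 placed members of at least 150 bases, each taken by its own densest window, 33.6% reach 2 matches and 5.96% reach 3, and *sme2* is the 1 member that reaches 7. Over its whole length *sme2* has 9 matches (5.76 per kb), *nam3* 4 (2.41 per kb) and *nc-pho1* 6 (2.34 per kb), against a median of 1.94 per kb over the 816 placed members, and the opposite strands of the 3 RNAs have 1, 4 and 7 matches.

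The second set is SPNCRNA.530, the shortest of the RNAs higher in both poly(A) polymerase module mutants, whole and with the 50 bases after its end (I:1966433-1966635, minus strand), and the 3′ end of SPNCRNA.1626 with 50 bases on either side (II:3625974-3626073, minus strand). The capitals mark AATAAA, the letters of the canonical polyadenylation signal.
SPNCRNA.530: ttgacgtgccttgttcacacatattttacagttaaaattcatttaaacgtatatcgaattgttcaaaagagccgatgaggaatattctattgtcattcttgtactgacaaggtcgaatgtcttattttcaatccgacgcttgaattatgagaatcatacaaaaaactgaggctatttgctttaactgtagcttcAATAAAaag
SPNCRNA.1626: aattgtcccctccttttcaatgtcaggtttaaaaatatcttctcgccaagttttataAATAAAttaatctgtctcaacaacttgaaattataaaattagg
An AATAAA lies within 50 bases of the annotated 3′ end in 22.4% of the 816 placed members and in 24.7% of the 5111 placed coding genes. It was found in this window in 4 of the 28 placed members called higher in pfs2-F115H, which is 14.3%, and in 1 of the 5 called higher in yth1-R59C. The AATAAA of SPNCRNA.530 lies after its annotated end, since its body holds 0. These counts are of the transcribed strand, and over the whole RNAs 1 TNAAAC overlaps an AATAAA in *sme2* and 0 in the other 4. A match is a description of the letters and not of a site.

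Most members were at low levels in wt. The median wt level was 0.742 CPM (read counts scaled to the same total in every library), against 30.4 CPM over all 6996 features; 479 members averaged under 1 CPM in wt, 91 reached 10 CPM and 10 reached 100 CPM. Of the 891 members, 112 had no read in any of the 30 libraries, among them *nam5* and *nam6*, and a further 339 had reads but averaged under 1 CPM over all libraries. The remaining 440 (49.4%) passed this minimum and were tested, as were 5911 of all 6996 features (84.5%). Just inside the minimum lay SPNCRNA.1071 with a mean of 1.00 CPM and just outside it SPNCRNA.513 with 0.992 CPM. The minimum admits members that are high in mutants alone: 34 of the 440 averaged under 1 CPM in wt, and 14 of these 34 were called higher in some mutant, so no count over the 440 is one over all members. Levels per kb of exon in wt were led by *srp7* with 14129, *mrp1* with 4001, *prl53* with 2302, *rrk1* with 544 and *snR191*, a small nucleolar RNA, with 448 CPM per kb.

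Libraries held between 1031965 and 6344396 counted reads, so 1 read was worth between 0.158 and 0.969 CPM. The deleted gene had no read in ssu72D, dis2D and swd22D. In pfs2-F115H, *pfs2* stood at 20.9 to 26.9 CPM, against 37.2 to 45.7 CPM in wt and at least 34.9 CPM in every other library. In yth1-R59C, *yth1* stood at 12.7 to 14.4 CPM, against 10.8 to 16.1 CPM in wt. Whether the lower level of *pfs2* RNA bears on the changes in pfs2-F115H was not tested. In the libraries labelled ppn1D, *ppn1* stood at 76.3 to 86.1 CPM, against 62.8 to 79.3 CPM in wt, so the label is not borne out by its own gene and no direction below is tied to loss of Ppn1.

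The number of members called differed widely between the mutants. A member was called where the change passed an adjusted p of 0.05 (limma on log2(CPM + 1), Benjamini-Hochberg over the 5911 features) and was at least 2-fold on that scale. In pfs2-F115H, 30 of the 440 members were called higher (6.82%; background over all features 2.62%) and 4 lower (0.909%; background 0.508%). In ssu72D, 26 were called higher (5.91%; background 2.96%) and 1 lower (0.227%; background 0.508%).
In dis2D, 22 members were called higher (5%; background 1.3%) and 7 lower (1.59%; background 0.711%). In swd22D, 10 were called higher (2.27%; background 1.17%) and 19 lower (4.32%; background 1.73%), a balance that depended on the tool, since edgeR called 13 higher and 15 lower and DESeq2 12 higher and 10 lower. In yth1-R59C, 5 were called higher (1.14%; background 0.677%) and 0 lower (background 0.135%; 11 lower at an unadjusted p under 0.05, 4 called lower by edgeR and 1 by DESeq2).
Among the 480 tested RNAs named antisense, the share called higher was 14.2% in pfs2-F115H, 14.4% in ssu72D, 6.25% in swd22D and 3.96% in yth1-R59C. Each of these lay above the share of the members, while that in dis2D (2.92%) lay below it. The PAS strains and ppn1D had few calls. The libraries labelled ppn1D had 1 higher (0.227%; background 0.643%) and 1 lower (0.227%; background 0.0677%), and PAS-T4A had 1 higher (0.227%; background 0.0677%) and 1 lower (0.227%; background 0.22%). PAS-T4C had 0 higher (background 0.0169%) and 1 lower (0.227%; background 0.152%), and PAS-T4G had 0 higher (background 0.0677%) and 5 lower (1.14%; background 0.457%). At an unadjusted p under 0.05, 8 members were higher in PAS-T4C and 28 in PAS-T4G, and edgeR called 0 and 1 of them higher and DESeq2 0 and 0.

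Without wt replicate 3 the counts fell to 15 in ssu72D (all higher), 16 in dis2D (12 higher, 4 lower) and 17 in swd22D (4 higher, 13 lower), and without ssu72D replicate 3 the ssu72D count was 17. Without yth1-R59C replicate 3 the 5 calls became 3. With median-of-ratios scaling in place of CPM, dis2D had 16 higher and 10 lower (61.5% of the calls higher, against 75.9% with CPM) and swd22D had 14 higher and 17 lower (45.2% higher, against 34.5%), while pfs2-F115H had 21 higher and 5 lower.

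**Figure D1:**
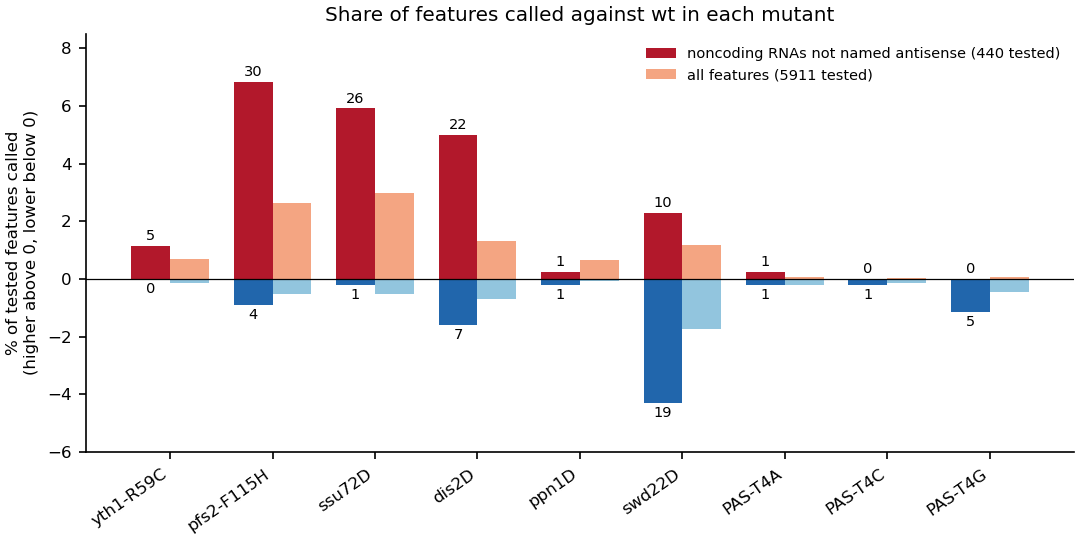
Share of features called against wt, in percent of those tested, for each mutant. Dark bars stand for the 440 tested noncoding RNAs and pale bars for all 5911 features, with higher calls above 0 and lower calls below 0, and the numbers on the bars count the noncoding RNAs. The dark bars are tallest in pfs2-F115H (6.82%), ssu72D (5.91%) and dis2D (5%), and the longest downward bar is that of swd22D (4.32%).

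Among features of like level in wt, the share of members called higher lay above or below that of all features depending on the level and the mutant, and these contrasts were not tested. At 10 CPM or more, 8 of 91 members were called higher in pfs2-F115H (8.79%), against 0.766% of all 4701 features at that level, 3 of 91 in ssu72D (3.30% against 0.979%) and 5 of 91 in dis2D (5.49% against 0.447%). At 3 to 10 CPM it was 4.73% of 169 members in pfs2-F115H, against 9.63% of 696 features, with 5.92% against 8.91% in ssu72D and 5.92% against 4.60% in dis2D. Under 3 CPM it was 7.78% of 180 members in pfs2-F115H, against 10.1% of 514 features, with 7.22% against 13.0% in ssu72D and 3.89% against 4.67% in dis2D. At 10 CPM or more the share was thus higher among the members in all 3 of these mutants, and at 3 to 10 CPM in dis2D alone. The class of 10 CPM or more has no upper limit. The median wt level was 3.77 CPM over the tested members and 43.2 CPM over all tested features, so levels inside this class may differ.

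The bulk of the members moved little. The median log2 change of the 440 was 0.19 in pfs2-F115H (all features 0.12), 0.17 in yth1-R59C (all features 0.09), 0.16 in ssu72D (all features 0.02) and 0.19 in dis2D (all features 0.09). It was -0.09 in the libraries labelled ppn1D (all features 0.01), -0.09 in swd22D (all features -0.04), 0.01 in PAS-T4A (all features 0.01), -0.10 in PAS-T4C (all features -0.04) and -0.01 in PAS-T4G (all features 0.04). The share of the 440 with a change above 0 was 69.3% in yth1-R59C (all features 68.8%), 64.5% in pfs2-F115H (68.6%), 65.2% in ssu72D (53.2%) and 67.0% in dis2D (64.9%). Under 3 CPM in wt, the members' medians lay below those of all features in each of these mutants (pfs2-F115H 0.22 against 0.27, ssu72D 0.29 against 0.44). At 3 to 10 CPM they lay above in dis2D alone (0.20 against 0.18), and at 10 CPM or more in each (pfs2-F115H 0.22 against 0.11). The RNAs named antisense had medians of 0.31 in yth1-R59C, 0.41 in pfs2-F115H, 0.44 in ssu72D and 0.22 in dis2D.
Median-of-ratios scaling brought the median of all features in pfs2-F115H to 0.00, a shift of over 0.1, and that of the members to 0.09 with 57.5% above 0. In ssu72D the median of the members was then 0.15 and that of all features 0.00.

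**Figure D2:**
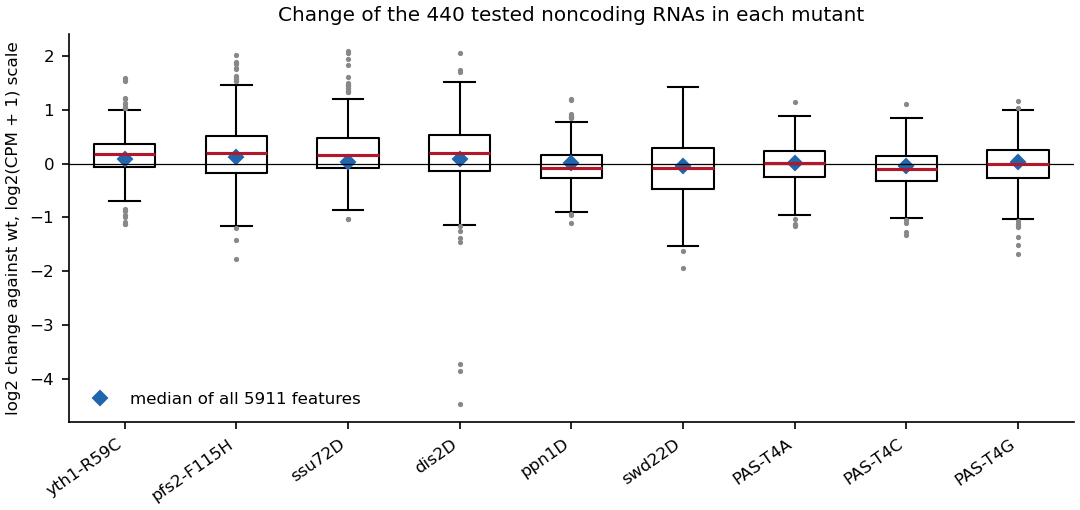
Log2 change against wt on the log2(CPM + 1) scale for the 440 tested noncoding RNAs in each mutant. Boxes span the quartiles with the median as a red line, whiskers reach 1.5 times the box, points lie beyond, and blue diamonds give the median of all 5911 features. The red lines of yth1-R59C, pfs2-F115H, ssu72D and dis2D lie between 0.16 and 0.19, above the diamonds. The diamonds cover features of a higher median level in wt.

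Across the 9 mutants 94 of the 440 tested members were called at least once, 65 of them higher somewhere, 30 lower somewhere and 1 (SPNCRNA.1709) in both directions. Of the 94, 64 were called in 1 mutant, 21 in 2, 8 in 3 and 1 in 4. No matching counts were made over all features, so whether these shares are unusual was not tested. With the libraries labelled ppn1D left aside, 7 were called higher in 3 of the 5 CPF mutants and none in the same direction in 4 or more. All comparisons share the 3 wt libraries, so calls of 1 member in several mutants are not independent of each other.

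**Figure D3:**
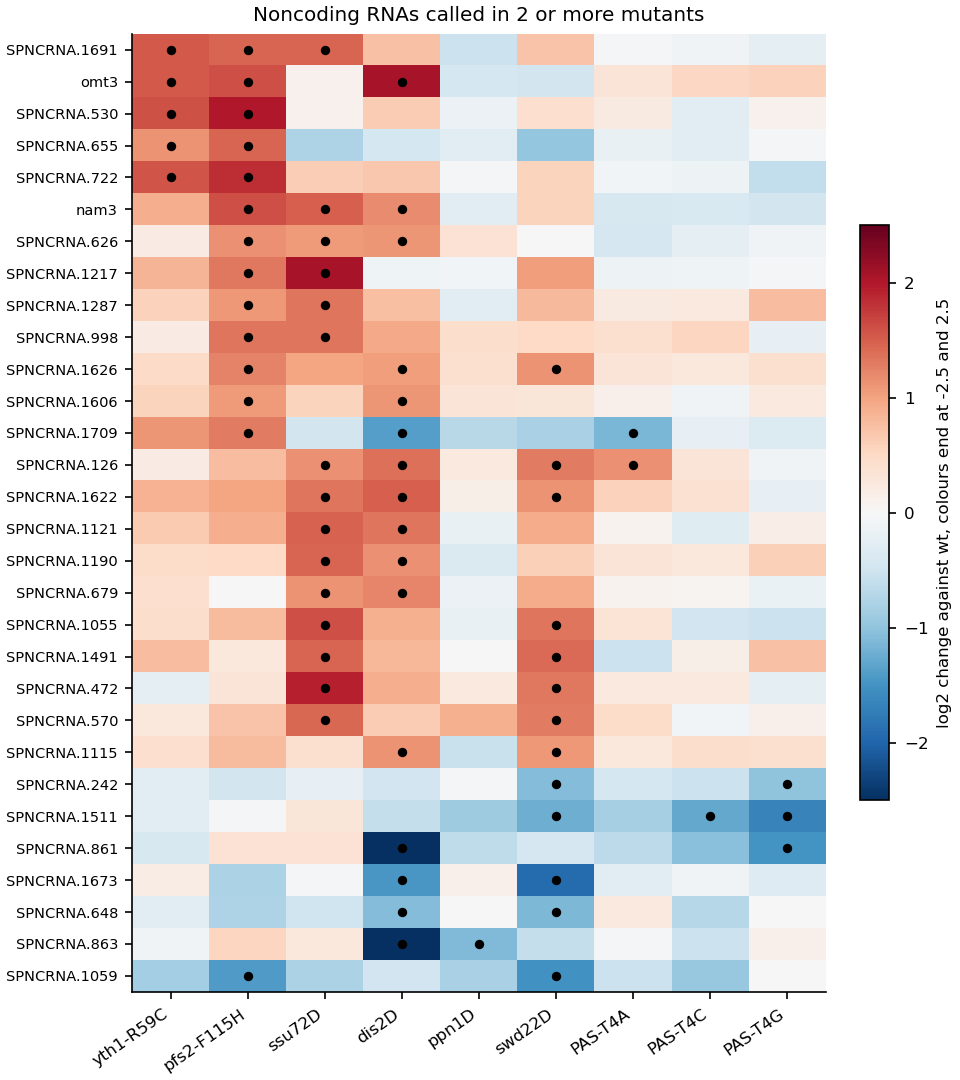
Log2 change against wt for the 30 noncoding RNAs called in 2 or more mutants, with mutants as columns and RNAs as rows. Red is higher and blue lower than wt, the colours end at -2.5 and 2.5, and a dot marks a call. The 5 RNAs called in yth1-R59C stand at the top, each with a dot in pfs2-F115H too, and SPNCRNA.863 and SPNCRNA.861 are the darkest blue cells, in dis2D.

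The 5 members that rose in yth1-R59C all rose in pfs2-F115H as well. SPNCRNA.655, a 2802-base RNA on chromosome I that covers *rrp15*, *yea6* and SPAC227.19c on the other strand over 84.3% of its length, had 51.4, 54.9 and 46.9 CPM in yth1-R59C and 68.9, 55.9 and 67.8 CPM in pfs2-F115H, against 23.8, 26.2 and 18.9 CPM in wt. Every library of either mutant lay above every wt library. The log2 change was 1.13 ± 0.16 (SE, limma adjusted p = 1.2e-05) in yth1-R59C and 1.45 ± 0.16 (adjusted p = 3.2e-08) in pfs2-F115H. In the phosphatase module mutants it moved the other way, with 13.7, 13.4 and 11.7 CPM in ssu72D (log2 change -0.77, adjusted p = 0.00055) and 11.5, 9.69 and 12.7 CPM in swd22D (-0.96, adjusted p = 3.6e-05), all below the wt libraries though short of 2-fold. SPNCRNA.655 ends 6202 bases from *yth1* itself, and its neighbour SPNCRNA.656, which starts 8 bases before its end, had 8.42, 5.92 and 3.44 CPM in pfs2-F115H, against 0.752, 0.788 and 0.808 CPM in wt (1.89 ± 0.48, adjusted p = 0.0054).

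SPNCRNA.530 and SPNCRNA.722 rose in both poly(A) polymerase module mutants as well, and had log2 changes of 0.10 and 0.62 in ssu72D and 0.43 and 0.56 in swd22D, none of which was called. SPNCRNA.530, the 153-base RNA printed above, had 35, 41.2 and 34.5 CPM in yth1-R59C and 45.9, 65.6 and 40.5 CPM in pfs2-F115H, against 13.8, 7.57 and 14.8 CPM in wt. The groups did not overlap, and the log2 changes were 1.58 ± 0.28 (adjusted p = 0.00043) and 2.01 ± 0.28 (adjusted p = 3.3e-06). SPNCRNA.722, which covers SPAC4C5.03 and *rad31* on the other strand over 90.0% of its 2850 bases, had 25.7, 26.9 and 23.4 CPM in yth1-R59C and 28.3, 32.3 and 32.3 CPM in pfs2-F115H, against 7.78, 7.57 and 8.35 CPM in wt. This is again a clean separation, with log2 changes of 1.56 ± 0.27 (adjusted p = 0.00032) and 1.84 ± 0.27 (adjusted p = 8.3e-06). The genes on the other strand of SPNCRNA.655 and SPNCRNA.722 were not called in either mutant, with SPAC4C5.03 at 78.7 CPM in pfs2-F115H, against 55.2 CPM in wt (0.50, adjusted p = 0.0032, under 2-fold). All the calls of SPNCRNA.655, SPNCRNA.530 and SPNCRNA.722 held with any 1 library left out.

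The other shared rises were smaller or less steady. *omt3* had 15.9, 8.98 and 20 CPM in yth1-R59C, 19.9, 15.6 and 11.1 CPM in pfs2-F115H and 16.7, 17.9 and 30.7 CPM in dis2D, against 5.27, 4.26 and 3.5 CPM in wt, which no mutant library of these strains reached. Its log2 changes were 1.53, 1.61 and 2.05 in that order (SE 0.34 each), and the adjusted p in yth1-R59C was 0.0059 with all libraries and 0.061 without yth1-R59C replicate 3. SPNCRNA.1691 had 9.77, 3.70 and 6.72 CPM in yth1-R59C, 6.13, 5.92 and 5.56 CPM in pfs2-F115H and 5.08, 6.72 and 5.84 CPM in ssu72D, against 3.01, 1.58 and 0.539 CPM in wt. Its adjusted p values of 0.036, 0.017 and 0.018 rose to 0.256, 0.134 and 0.144 without wt replicate 3. The call also ended without wt replicate 2 (0.101) and yth1-R59C replicates 1 (0.204) and 3 (0.106), without pfs2-F115H replicate 1 (0.063), and without ssu72D replicates 2 (0.064) and 3 (0.054).

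Of the RNAs linked to phosphate genes or to Mmi1, *nc-pho1*, *sme2* and *nam3* were called higher in pfs2-F115H and *nc-tgp1*, *nam1* and *nam2* were not. *nc-pho1*, transcribed through the start of the acid phosphatase gene *pho1*, had 68.9, 73.7 and 60.1 CPM in pfs2-F115H, against 26.1, 19.1 and 21.5 CPM in wt, with no overlap (1.57 ± 0.18, adjusted p = 8.7e-08). It lay above wt in dis2D as well, at 45.6, 46.2 and 39.7 CPM (0.96, adjusted p = 0.00032), and in ssu72D at 28.6, 34.1 and 39.9 CPM (0.60, adjusted p = 0.017) and swd22D at 29.3, 37.8 and 35.3 CPM (0.60, adjusted p = 0.015), without reaching 2-fold. *pho1* and *pho84*, the acid phosphatase and the phosphate transporter on either side of it, are listed at 0 in all 30 libraries. *nc-pho1* overlaps *pho1* on the same strand, and reads over both were left uncounted, so the 0 of *pho1* leaves such reads out. *nc-tgp1*, which runs into the transporter gene *tgp1*, had 173, 140 and 140 CPM in pfs2-F115H, against 89.7 ± 7.2 CPM in wt (SD, n = 3; log2 change 0.74, adjusted p = 8.6e-06), and *tgp1* itself, at 36.2 CPM in pfs2-F115H and 46.3 CPM in wt, was not called in any mutant. SPNCRNA.1343, which lies beside *nc-tgp1*, was not called either, at 23.7 ± 4.14 CPM in wt (SD, n = 3).

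*sme2*, the meiRNA gene, had 4.59, 5.38 and 9.27 CPM in pfs2-F115H, against 1.76, 2.21 and 2.15 CPM in wt, again without overlap. Its log2 change of 1.24 ± 0.34 passed with an adjusted p of 0.0091 and missed the call without pfs2-F115H replicate 3, where it was 0.98 with an adjusted p of 0.057. *nam3* stood at 52.1, 52.7 and 49.5 CPM in pfs2-F115H, 44.0, 48.9 and 49.2 CPM in ssu72D and 37.3, 39.6 and 37.4 CPM in dis2D, against 22.3, 12.6 and 14.8 CPM in wt. No library of these 3 mutants came down to the highest wt value, and the log2 changes were 1.61, 1.5 and 1.19 (SE 0.20 each, adjusted p = 2.9e-07, 1.0e-06 and 5.7e-05). In yth1-R59C *nam3* had 33.4, 25.9 and 35 CPM (0.91, adjusted p = 0.0043), above wt but under 2-fold, and in swd22D 22.3, 30.0 and 20.8 CPM (0.55, adjusted p = 0.044), which overlapped wt. *nam1* (89.2 ± 8.95 CPM in wt) and *nam2* (3.57 ± 1.24 CPM in wt; SD, n = 3 each) were not called in any mutant, and the log2 change of *nam1* lay between -0.40 in swd22D (adjusted p = 0.0015) and 0.18 in PAS-T4C. The coding gene on the same strand ahead of *nam3*, SPBPB2B2.06c, had 8.42, 30.1 and 22.0 CPM in pfs2-F115H, 13.3, 33.6 and 16.1 CPM in ssu72D and 95.7, 123 and 160 CPM in dis2D, against 2.01, 1.89 and 3.5 CPM in wt, and it ends 2731 bases before *nam3* starts.

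**Figure D4:**
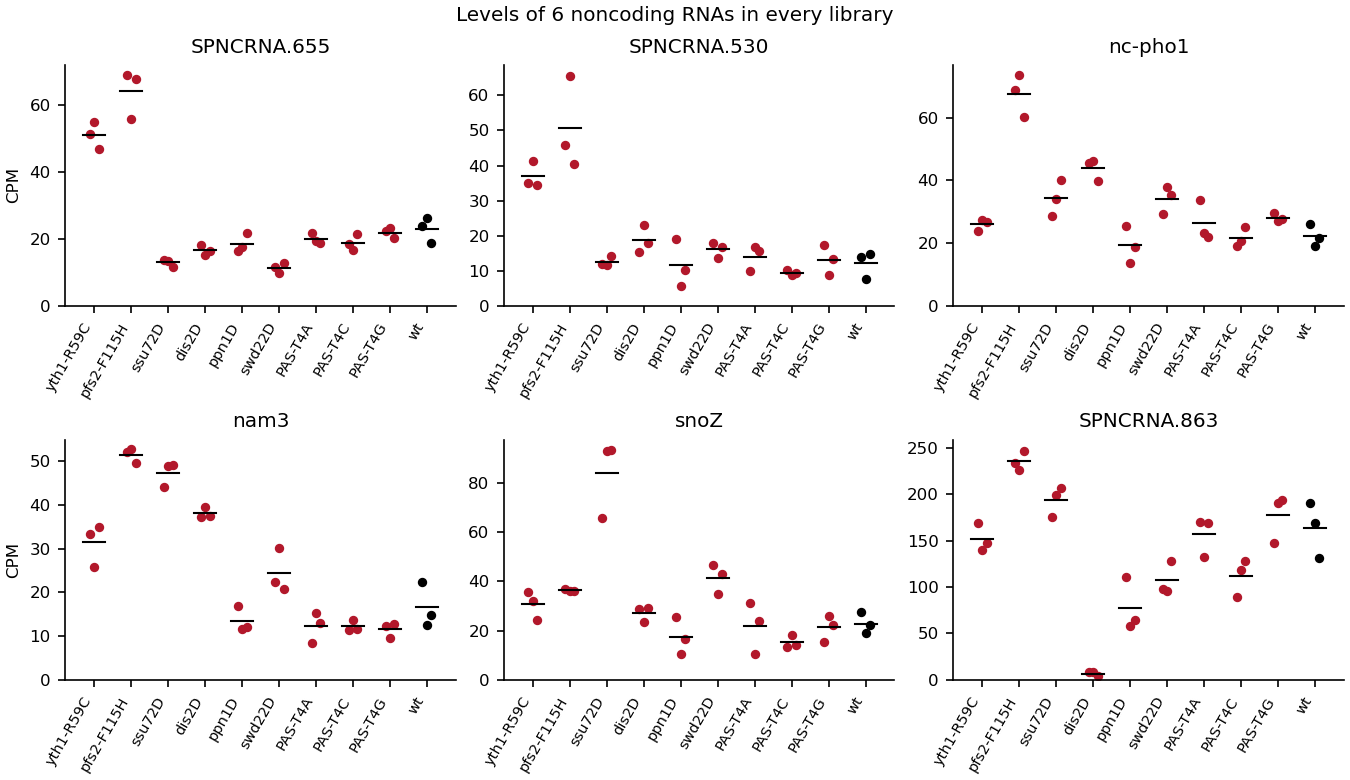
CPM of 6 noncoding RNAs in every library, with the 9 mutants from the left and wt at the right. Points are libraries and lines the mean of the 3 libraries of a strain. SPNCRNA.655 and SPNCRNA.530 stand high in yth1-R59C and pfs2-F115H, *nc-pho1* highest in pfs2-F115H, *nam3* in pfs2-F115H, ssu72D and dis2D, *snoZ* in ssu72D, and SPNCRNA.863 lies at 3.74 to 8.35 CPM in dis2D.

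Besides SPNCRNA.530 and SPNCRNA.656, the rise in pfs2-F115H that ranked among the 3 largest was that of SPNCRNA.1650, with 8.42, 3.77 and 2.65 CPM, against 0.251, 0.788 and 0.539 CPM in wt (1.86 ± 0.43, adjusted p = 0.0023). SPNCRNA.656 and SPNCRNA.1650 averaged under 1 CPM in wt and passed the minimum only through mutant libraries. SPNCRNA.698 and SPNCRNA.1567, picked after their values were seen, had 36.0, 37.7 and 40.2 CPM and 24.5, 19.4 and 17.5 CPM in pfs2-F115H, against 17.3, 17.8 and 17.5 CPM and 10, 9.14 and 9.43 CPM in wt (adjusted p = 0.00094 and 0.0031). SPNCRNA.1567 fell under 2-fold without pfs2-F115H replicate 1 (0.88) or wt replicate 2 (0.99). Downward, SPNCRNA.178 had 0.766, 0 and 0 CPM in pfs2-F115H, against 3.01, 2.84 and 3.5 CPM in wt (-1.76 ± 0.39, adjusted p = 0.0015). SPNCRNA.1059 had 0.766, 1.61 and 2.38 CPM in pfs2-F115H and 0.636, 0.969 and 2.89 CPM in swd22D, against 6.27, 4.89 and 5.92 CPM in wt. It was lower in both (adjusted p = 0.0056 and 0.0027), the call in pfs2-F115H being lost without its replicate 1 (adjusted p = 0.059). *prl42* had 0, 0 and 0.529 CPM in pfs2-F115H, against 1.76, 1.10 and 2.15 CPM in wt (adjusted p = 0.037). With 1 read worth 0.265 CPM in pfs2-F115H replicate 3, at most 2 reads per mutant library stand behind this call. It ended without either of 2 pfs2-F115H libraries, replicate 1 (0.136) or 2 (0.113), and without wt replicate 1 (0.088) or 3 (0.140).

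SPNCRNA.1626, the 5113-base RNA on chromosome II that runs opposite to *mbx2* and SPBP8B7.32, was the most abundant of the RNAs called in 3 mutants. It had 153, 119 and 96.1 CPM in pfs2-F115H, 83.5, 105 and 131 CPM in dis2D and 91.6, 149 and 98.4 CPM in swd22D, against 53.4, 50.3 and 46.9 CPM in wt. All 9 mutant libraries were above wt, with log2 changes of 1.25, 1.05 and 1.12 (SE 0.17 each, adjusted p = 1.5e-06, 3.2e-05 and 7.2e-06). In ssu72D it had 93.3, 92.3 and 117 CPM and missed the 2-fold limit by little (0.99, adjusted p = 5.1e-05). The 2-fold limit was also missed in dis2D without dis2D replicate 3 (0.89, adjusted p = 0.0013) and in swd22D without swd22D replicate 2 (0.91, adjusted p = 0.00034). *mbx2*, a MADS-box transcription factor gene on the other strand, had 1.53, 3.77 and 2.12 CPM in pfs2-F115H and 6.36, 1.94 and 4.05 CPM in swd22D, against 8.53, 9.77 and 11.8 CPM in wt, and was called lower in both (-1.71 and -1.20, adjusted p = 0.00056 and 0.011). In dis2D, where SPNCRNA.1626 rose, *mbx2* averaged 8.61 CPM, against 10.1 CPM in wt, and was not called (adjusted p = 0.75).

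In ssu72D the largest rises were in RNAs of low level in wt. SPNCRNA.1224, whose annotated start lies 67 bases inside the 3′ end of the invertase gene *inv1*, had 4.03, 5.10 and 9.25 CPM in ssu72D, against 0.752, 0.315 and 0.808 CPM in wt (2.08 ± 0.40, adjusted p = 0.00031). SPNCRNA.1217 had 4.73, 4.17 and 4.38 CPM in ssu72D, against 0.752, 0 and 0.269 CPM in wt (2.06 ± 0.39, adjusted p = 0.00027), and SPNCRNA.472 had 4.38, 5.33 and 7.30 CPM, against 1.00, 0.946 and 0.269 CPM (1.95 ± 0.42, adjusted p = 0.0010). Each of these 3 RNAs separated fully from wt. All 3 averaged under 1 CPM in wt, so they passed the minimum of 1 CPM only through mutant libraries. SPNCRNA.1217 rose in pfs2-F115H too, with 1.53, 2.69 and 2.65 CPM (adjusted p = 0.017; 0.065 without pfs2-F115H replicate 2, 0.088 without wt replicate 2 and 0.055 without wt replicate 3). *inv1*, which ends where SPNCRNA.1224 begins, averaged 56.8 CPM in ssu72D and 37.6 CPM in wt and was not called (adjusted p = 0.39).

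Of higher-level RNAs, *snoZ* rose most clearly in ssu72D, at 65.9, 93.0 and 93.5 CPM, against 27.6, 18.9 and 22.1 CPM in wt (1.83 ± 0.26, adjusted p = 4.2e-06). In swd22D it had 46.5, 34.9 and 42.8 CPM, above all wt libraries at less than 2-fold (0.84, adjusted p = 0.021). Other members named as small nucleolar RNAs moved less: *snoR61* had 52.9, 67.0 and 63.3 CPM in ssu72D, against 38.3 ± 12.5 CPM in wt (SD, n = 3; 0.71, adjusted p = 0.027), and *snR191* was not called. *psf3*, opposite to 40.0% of *snoZ*, averaged 19.7 CPM in ssu72D and 30.5 CPM in wt (log2 change -0.60, adjusted p = 0.0030, under 2-fold). The only member called lower in ssu72D was SPNCRNA.1237, with 1.93, 1.62 and 0 CPM, against 3.01, 2.84 and 3.23 CPM in wt. That call (adjusted p = 0.049) was lost with any of 4 libraries left out, ssu72D replicate 3 (0.426) and wt replicates 1 (0.099), 2 (0.1) and 3 (0.132).

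SPNCRNA.1055 and SPNCRNA.1491 rose in both ssu72D and swd22D. SPNCRNA.1055, which begins 382 bases after the glycolytic gene *gpm1*, had 9.29, 16.5 and 11.7 CPM in ssu72D and 8.91, 12.6 and 8.68 CPM in swd22D, against 6.27, 2.84 and 1.89 CPM in wt (adjusted p = 0.0011 and 0.0053; in swd22D 0.057 without wt replicate 3). SPNCRNA.1491, opposite to *pwp1* and *prp16*, had 5.08, 4.64 and 3.90 CPM in ssu72D and 3.82, 4.85 and 4.63 CPM in swd22D, against 1.76, 0.946 and 0.539 CPM in wt (adjusted p = 0.0053 and 0.0052). None of the mutant libraries fell within the wt range for these RNAs. SPNCRNA.472 had 2.55, 3.88 and 3.47 CPM in swd22D (1.32 ± 0.42, adjusted p = 0.022), a call lost without swd22D replicate 2 (0.078) or 3 (0.055) or wt replicate 3 (0.111).

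SPNCRNA.126, SPNCRNA.626 and SPNCRNA.1622 were called in 3 or more mutants too, with calls that often rested on single libraries. SPNCRNA.126 was called in 4 mutants, with 3.68, 2.55 and 3.90 CPM in ssu72D, 1.93, 5.65 and 5.99 CPM in dis2D, 1.91, 4.85 and 5.79 CPM in swd22D and 2.11, 3.33 and 5.15 CPM in PAS-T4A, against 0.752, 1.42 and 0.808 CPM in wt. No library of the 4 strains was in the wt range, and the adjusted p values were 0.020, 0.0070, 0.0067 and 0.038. SPNCRNA.126 averaged just under 1 CPM in wt and passed the minimum only through mutant libraries. The swd22D call held with any 1 library left out, whereas the dis2D call was lost without dis2D replicate 3 (0.067), the ssu72D call without ssu72D replicate 1 (0.070) or 3 (0.090) or wt replicate 1 (0.072) or 3 (0.076), and the PAS-T4A call without PAS-T4A replicate 2 (0.079) or 3 (0.163) or any wt library (0.053 to 0.129). SPNCRNA.626 had 20.7, 13.4 and 18.8 CPM in pfs2-F115H, 14.2, 14.1 and 21.4 CPM in ssu72D and 15.4, 16.5 and 18.7 CPM in dis2D, against 8.78, 5.83 and 7.54 CPM in wt. Its log2 changes were 1.15, 1.06 and 1.10 with adjusted p of 0.011, 0.020 and 0.020, and each was lost without wt replicate 2 (0.060, 0.101 and 0.096). Wt replicate 3 decided the ssu72D (0.053) and dis2D (0.065) calls too, as did pfs2-F115H replicate 1 (0.069), ssu72D replicate 3 (0.130) and dis2D replicate 3 (0.088). SPNCRNA.1622, 4.56 to 7.19 CPM in ssu72D, 5.18 to 8.98 CPM in dis2D and 2.31 to 8.72 CPM in swd22D, against 1.08 to 2.99 CPM in wt, overlapped wt in swd22D, and all its calls were lost without wt replicate 3 (adjusted p = 0.105, 0.085 and 0.170). Other libraries whose omission ended a call were ssu72D replicates 2 (0.075) and 3 (0.064) and wt replicate 1 (0.058) for ssu72D, dis2D replicate 3 (0.081) for dis2D, and swd22D replicates 1 (0.115) and 2 (0.241) and wt replicate 1 (0.114) for swd22D.

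In dis2D the largest changes of any member were losses at 1 place on chromosome I. SPNCRNA.863 had 8.35, 8.01 and 3.74 CPM in dis2D, against 190, 168 and 131 CPM in wt (-4.46 ± 0.20, adjusted p = 8.7e-19). SPNCRNA.861 and SPNCRNA.862, which overlap each other on opposite strands beside it, had no read in any of the 3 dis2D libraries, against 15.3, 11.3 and 10.5 CPM and 12.3, 11.5 and 17.2 CPM in wt. With 3 reads per library as the limit that a count of 0 allows (1.41 to 2.25 CPM in dis2D), they were at least 6.65-fold and 7.35-fold lower. The coding genes on the same side behaved alike: *cao1*, a copper amine oxidase gene, had no read in dis2D, against 162, 145 and 137 CPM in wt, and SPAC2E1P3.05c had 0, 0.471 and 0 CPM, against 94.3, 66.7 and 76.2 CPM. The losses therefore fell on 5 features in a row, from *cao1* (2931772, ASM294v3) to SPNCRNA.863 (2940765). Beyond SPNCRNA.863, SPAPB2C8.01 had 194, 216 and 177 CPM in dis2D, against 229, 228 and 236 CPM in wt. Beside *cao1* lies the retrotransposon Tf2-3, listed at 0 in all libraries of both strains, so these values do not set that end of the stretch. Whether the DNA of this stretch is present in dis2D was not tested. Neighbours from this stretch, among them SPNCRNA.861 and SPNCRNA.863, count as separate members in the 7 called lower in dis2D. Whether they changed independently of each other was not tested.

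SPNCRNA.863 was also the member called lower in the libraries labelled ppn1D, with 111, 57.5 and 64.4 CPM, against 190, 168 and 131 CPM in wt (-1.11 ± 0.20, adjusted p = 0.00027; under 2-fold at -0.92 without ppn1D replicate 2 and -0.99 without wt replicate 1). In those libraries SPNCRNA.862, its neighbour, was not called. SPNCRNA.861 was called lower in PAS-T4G at 5.56, 0.965 and 6.89 CPM (-1.5 ± 0.39, adjusted p = 0.012), a call lost without PAS-T4G replicate 2 (0.179) or wt replicate 1 (0.069), while SPNCRNA.863 there averaged 177 CPM and was not called (adjusted p = 0.77).

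Rises in dis2D were led by *omt3*, *meu3* and SPNCRNA.293. SPNCRNA.293, on chromosome II, had 21.8, 18.8 and 18.7 CPM in dis2D, against 5.52, 5.2 and 5.39 CPM in wt, 2 tight groups far apart (1.70 ± 0.34, adjusted p = 0.00079). *meu3*, an RNA named for its rise in meiosis, had 2.57, 8.48 and 3.74 CPM in dis2D, against 0, 1.42 and 0.808 CPM in wt (1.73 ± 0.46, adjusted p = 0.011), and its call was lost without dis2D replicate 2 (0.086) or wt replicate 1 (0.079). It averaged under 1 CPM in wt and passed the minimum only through mutant libraries. SPNCRNA.111, a 3776-base RNA, had 95.1, 65.5 and 68.1 CPM in dis2D, against 41.4, 32.3 and 36.4 CPM in wt, every dis2D library above every wt library (1.02 ± 0.16, adjusted p = 2.3e-05); it fell under 2-fold without dis2D replicate 1 (0.85) or wt replicate 2 (0.94). SPNCRNA.1709, the member called in both directions, had 3.83, 6.46 and 6.35 CPM in pfs2-F115H, 0 CPM in all 3 dis2D libraries and 0, 0 and 0.644 CPM in PAS-T4A, against 0.752, 2.21 and 2.15 CPM in wt. It is 116 bases long and begins 31 bases after *rpc10*, a gene for an RNA polymerase subunit, and its wt level lies at the limit of 3 reads in dis2D, so no fold is given there (adjusted p = 0.0063). Its call in pfs2-F115H (adjusted p = 0.0068) was lost without wt replicate 1 (0.063), and that in PAS-T4A (0.035) with any of 4 libraries left out (PAS-T4A replicates 1 and 2, wt replicates 2 and 3; 0.111 to 0.163).

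In swd22D, where lower calls outnumbered higher ones with limma but not with DESeq2 (10 lower, 12 higher), the largest change was a fall. SPNCRNA.1673 had 1.91, 0 and 1.74 CPM in swd22D and 1.28, 1.88 and 2.25 CPM in dis2D, against 6.02, 5.04 and 9.43 CPM in wt (-1.93 ± 0.37, adjusted p = 0.00029, and -1.46 ± 0.37, adjusted p = 0.0084; in dis2D 0.077 without wt replicate 3). Its opposite-strand gene *abp2*, for a DNA-binding protein, was lower in dis2D at 29.5, 24.5 and 26.2 CPM, against 53.9, 55.3 and 59.2 CPM in wt (-1.05, adjusted p = 1.6e-06). SPNCRNA.1284 had no read in swd22D, against 1.76, 2.05 and 2.42 CPM in wt (adjusted p = 0.0046). Since 3 reads are worth 1.74 to 2.91 CPM in the swd22D libraries, about the wt level, no fold is given. The RNA lies opposite to SPCC965.09 over 97.4% of its length, and SPCC965.09 was not called.

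In the PAS strains, which change the reporter and not the machinery, SPNCRNA.1511 was the 1 member called in more than 1 strain. It was called in PAS-T4C and PAS-T4G and not in PAS-T4A, where its log2 change was -0.84. SPNCRNA.1511, opposite to part of *ape2*, had 6.71, 1.77 and 5.56 CPM in PAS-T4C, 2.78, 2.89 and 3.18 CPM in PAS-T4G and 8.27, 1.94 and 4.63 CPM in swd22D, against 12, 10.1 and 12.7 CPM in wt. All of these libraries lay below wt, with log2 changes of -1.27, -1.67 and -1.23 (SE 0.34 each, adjusted p = 0.027, 0.0012 and 0.0084). The PAS-T4G call held with any 1 library left out, but that in PAS-T4C was lost without PAS-T4C replicate 2 (0.227) or any wt library (0.062 to 0.109), and that in swd22D without swd22D replicate 2 (0.117). SPNCRNA.1258 was lower in PAS-T4G at 22.8, 7.72 and 14.3 CPM, against 42.6, 31.8 and 23.2 CPM in wt (-1.15 ± 0.35, adjusted p = 0.031), which leaving out PAS-T4G replicate 2 (0.249) or 3 (0.063) or wt replicate 1 (0.168) or 2 (0.082) ended.

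In the libraries labelled ppn1D, SPNCRNA.1246 was the 1 member called higher, at 7.98, 10.5 and 9.35 CPM, against 3.01, 5.2 and 2.69 CPM in wt (1.18 ± 0.32, adjusted p = 0.040). The call was lost with any 1 of 5 libraries left out (adjusted p = 0.058 to 0.211). SPNCRNA.1246 lies 23796 bases from *ppn1*, and whether this bears on its level was not tested. Around SPNCRNA.1246, *adg3* on the other strand had 760, 761 and 788 CPM in those libraries, against 328, 342 and 339 CPM in wt, and *mak3*, a histidine kinase gene upstream on its strand, 993, 940 and 944 CPM, against 496, 474 and 437 CPM.

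None of the structural RNAs was called, but some differed from wt by less than 2-fold. *mrp1* was lower in PAS-T4G at 959, 913 and 1083 CPM, against 1596 ± 71.1 CPM in wt (SD, n = 3; -0.70 ± 0.08, adjusted p = 2.4e-07), and its log2 change was between -0.48 and -0.18 in the other 8 mutants. *prl53*, the most abundant member, stood at 7189 ± 178 CPM in swd22D and at 6389 ± 231 CPM in PAS-T4G, against 4262 ± 238 CPM in wt (SD, n = 3 each; 0.76 and 0.58, adjusted p = 1.1e-06 and 0.00017). *srp7* had no adjusted p under 0.05 in any mutant and differed widely between replicates of some strains, with 3607, 9213 and 7640 CPM in PAS-T4A. In dis2D it had 2014, 2268 and 1590 CPM (-0.89, adjusted p = 0.055) and in swd22D 4906, 5639 and 5886 CPM (0.61, adjusted p = 0.17), neither overlapping the 3384, 3244 and 4180 CPM in wt. *ter1* differed from wt at the threshold in dis2D alone, with 220, 225 and 224 CPM, against 179 ± 8.75 CPM (SD, n = 3; 0.31, adjusted p = 0.0095), and *rrk1* likewise, with 306, 356 and 231 CPM, against 486 ± 81.7 CPM (-0.71, adjusted p = 0.0088). Of the 59 *prl* RNAs, named as polyadenylated RNAs with no long reading frame, 17 were tested, and 1 was called lower in pfs2-F115H (*prl42*) and 1 higher in dis2D, with medians of 0.03 and 0.09.

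Summed over many RNAs, the members of low level stood higher in 4 of the CPF mutants than in wt. The 451 members below the minimum summed to 125 ± 11.9 CPM in yth1-R59C, 143 ± 8.32 CPM in pfs2-F115H, 140 ± 12.1 CPM in ssu72D and 123 ± 9.49 CPM in dis2D, against 89.0 ± 13.5 CPM in wt (SD, n = 3 each). The 12 libraries of these 4 mutants lay between 113 and 150 CPM, and the 3 wt libraries between 74.9 and 102 CPM. In swd22D the sum was 98.7 ± 7.76 CPM, in the libraries labelled ppn1D 85.1 ± 27.9 CPM and in the 9 PAS libraries between 68.6 and 102 CPM, which overlapped wt. These sums were not tested. With the 5 most abundant members left out, the remaining 886 summed to 4990 ± 274 CPM in pfs2-F115H, 4524 ± 402 CPM in ssu72D, 4528 ± 161 CPM in dis2D and 4453 ± 86.3 CPM in yth1-R59C, against 3817 ± 277 CPM in wt (SD, n = 3 each). Such rises were not particular to the members. The RNAs named antisense summed to 5112 ± 109 CPM in yth1-R59C, 5805 ± 215 CPM in pfs2-F115H and 5248.5 ± 304 CPM in ssu72D. Their sum was 4518 ± 106 CPM in dis2D and 4215 ± 124 CPM in swd22D, against 3735 ± 195 CPM in wt (SD, n = 3 each, not tested). Sums in CPM are shares of the reads counted, so they move with the scale of each library.

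**Figure D5:**
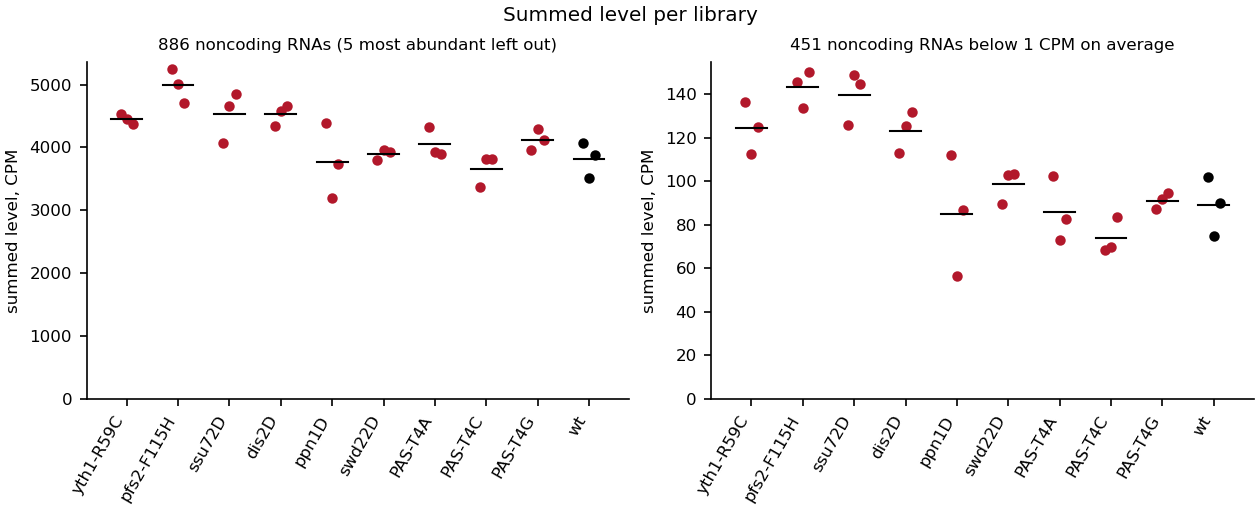
Summed CPM per library of the members without the 5 most abundant ones (left) and of the 451 members that averaged under 1 CPM (right), mutants from the left and wt at the right. Points are libraries and lines the mean of 3. The libraries of yth1-R59C, pfs2-F115H, ssu72D and dis2D lie above all wt libraries in both panels.

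By position, 489 of the 891 members overlap no coding gene, 207 overlap one on the other strand only, 120 overlap one on their own strand and 75 were not placed. Overlap was taken over whole gene spans, introns included. Reads over 2 features of 1 strand were left uncounted by the authors. Where the counted parts of 2 features overlap, the values thus come from the part not shared. This does not cover all 120, since *snR191* lies wholly inside the span of *nog2* and had counted reads. Members called higher came from all these classes: in pfs2-F115H 10 of 198 tested members that overlap no coding gene, 8 of 142 that overlap one on the other strand only and 10 of 88 that overlap one on their own strand, and in dis2D 13, 7 and 1. In 114 of the 428 tested and placed members, a same-strand feature starting further upstream overlapped the member or ended within 500 bases of it. Same-strand features that start no earlier than the member were not counted, so SPNCRNA.1567, which overlaps one, is among the other 314. In pfs2-F115H, 14 of these 114 were called higher (12.3%), against 14 of the other 314 (4.46%), and in ssu72D 9 of 114 (7.89%), against 15 of 314 (4.78%). In dis2D it was 2 of 114 (1.75%), against 19 of 314 (6.05%). Over all features, whatever their position, 2.62% were called higher in pfs2-F115H, 2.96% in ssu72D and 1.3% in dis2D. Of the 14 in pfs2-F115H, 11 had an upstream feature that was tested, 1 of which was called higher, and the median change of those 11 features was 0.20. Members called higher in any mutant had a median length of 1382 bases, against 1078 bases over the tested members, and members not tested one of 543 bases.

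Other genes of these pathways were described by fixed lists. Of 7 meiotic genes found of the 8 listed, 3 were called higher in pfs2-F115H (*mei4*, a transcription factor gene of meiosis and a known target of Mmi1, *crs1*, a meiotic cyclin gene, and *mcp7*; median change of the list 0.93, all features 0.12). EdgeR and DESeq2 called 2 each in pfs2-F115H, where limma called 2.62% of all features higher. The other 8 mutants had no limma, edgeR or DESeq2 call in this list, and at most 2 genes with an unadjusted p under 0.05. The list summed to 214 to 249 CPM in pfs2-F115H, 167 to 169 CPM in yth1-R59C and 137 to 140 CPM in ssu72D. In wt it was 98.0 to 113 CPM, which the remaining mutants overlapped. Of 6 stress genes, 3 were called higher in ssu72D (the heat-shock genes *hsp9* and *hsp16*, and *gpd1* for glycerol synthesis; median 0.80, all features 0.02). Over all features, limma called 2.96% higher in ssu72D. In the other 8 mutants limma called 0, edgeR and DESeq2 1 each in dis2D, and up to 5 (dis2D) had an unadjusted p under 0.05. The list stood lower in dis2D, with sums of 764 to 875 CPM, against 998 to 1338 CPM in wt. Its medians in those 8 mutants lay between -0.44 in dis2D and 0.23 in swd22D. Of 8 genes for noncoding RNA decay (*rrp6*, *dis3*, *mtl1*, *red1*, *mmi1*, *cid14*, *dhp1* and *exo2*), limma, edgeR and DESeq2 called 0 in any mutant, up to 5 (pfs2-F115H and swd22D) had an unadjusted p under 0.05, and the medians lay between -0.15 and 0.18. Of the phosphate genes only *tgp1* had counted reads. Whether these genes bear on the noncoding RNAs was not tested.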

How the data were processed

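Total RNA of 10 strains, 3 libraries each, was sequenced by the authors as 50-nt single-end reads from a stranded total RNA kit. The labels name the build ASM294v2 and, among the processing tools, STAR 2.7.3a, SAMtools 1.9 and bedtools 2.27.1. Per the study's methods, uniquely assigned reads were counted per feature on their own strand and reads over several features of 1 strand were left out, which lowers the values of RNAs that overlap a gene. The values deposited by the authors are CPM, read counts scaled to the same total in every library. Samples of small RNA were not analysed here. All 30 columns used were mapped to samples by name, and 0 were left out.

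Every CPM value was a whole multiple of what 1 read is worth in its library (100% whole), so the reads were recovered for the count tests. The main test was limma 3.58.1 (R 4.3.3) on log2(CPM + 1), 1 fit over the 30 libraries with the empirical Bayes trend and 20 residual degrees of freedom, for features averaging at least 1 CPM, with Benjamini-Hochberg adjustment over all 5911 of them. Calls took an adjusted p of 0.05 as threshold together with a 2-fold change on that scale, which understates changes of low RNAs. On the recovered reads, edgeR 4.0.16 (quasi-likelihood) called 77 features in yth1-R59C, 217 in pfs2-F115H, 299 in ssu72D, 140 in dis2D, 57 in ppn1D, 181 in swd22D and 18 to 32 in the PAS strains; DESeq2 1.42.0 was run as well. The limma procedure was tested on simulated data. The limit that a count of 0 allows was set at 3 reads, which covers counting error only. Other alternatives were pseudocounts of 0.1 and 4, no filter and a minimum of 10 CPM, median-of-ratios scaling, fits over 2 strains, a replicate block, and leaving out each library.

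RNAs were named by a rule: listed RNAs of known role, the 3 largest rises and falls in each mutant among calls without overlap between libraries, RNAs called in at least 4 CPF mutants or at least 2 PAS strains, and the 5 highest per kb in wt, each with its upstream and opposite neighbours. *nam2*, *nam3*, *nc-pho1*, *snoZ*, *snoR61*, SPNCRNA.111, SPNCRNA.626, SPNCRNA.655, SPNCRNA.698, SPNCRNA.1567, SPNCRNA.1622 and SPNCRNA.1626 were added after their values were seen. The members and lists were chosen with earlier results of these data known. Sequences and positions are from RefSeq ASM294v3, matched by identifier, not from the build of the files.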

Additional observations from a re-analysis of the deposited data

How the results depend on the processing

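The number of members called moved with the pseudocount, the minimum level and the tool. With a pseudocount of 4 it was 12 in pfs2-F115H, 8 in ssu72D, 9 in dis2D, 3 in swd22D, 1 in ppn1D, 0 in PAS-T4A, 0 in PAS-T4C and 2 in PAS-T4G. With a minimum of 10 CPM, which leaves fewer features to test, it was 3 in yth1-R59C, 13 in pfs2-F115H, 6 in ssu72D, 7 in dis2D, 1 in ppn1D, 4 in swd22D, 0 in PAS-T4A, 0 in PAS-T4C and 2 in PAS-T4G. A pseudocount of 0.1 gave 1 in ppn1D and 8 in PAS-T4G, and no filter gave 8 in yth1-R59C. A fit over the 2 strains compared gave 11 in yth1-R59C and 0 in PAS-T4A. EdgeR called 12 in yth1-R59C, 43 in ssu72D, 6 in ppn1D and 1 in PAS-T4A, and DESeq2 called 5 in ppn1D, 0 in PAS-T4A and 0 in PAS-T4G. The cause of these shifts was not tested, apart from the smaller number of features under the higher minimum.

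With each library left out in turn, the counts lay between 3 and 6 in yth1-R59C, 24 and 40 in pfs2-F115H, 15 and 25 in ssu72D, 16 and 24 in dis2D, 0 and 2 in ppn1D, 17 and 32 in swd22D, 0 and 3 in PAS-T4A, 0 and 1 in PAS-T4C, and 1 and 8 in PAS-T4G. The count in PAS-T4G was 1 without its replicate 2 or wt replicate 1, 3 without its replicate 1 or wt replicates 2 or 3, and 8 without its replicate 3. No named change turned its direction under any alternative run. Of the 70 calls of named RNAs, 65 held under median-of-ratios scaling, 61 with edgeR, 56 with DESeq2 and 31 with a pseudocount of 4.

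Replicate numbers are shared between strains, but libraries of the same number did not deviate together in every pair, so the numbers were not taken as pairing. With the number as a replicate block, the counts were 5, 35, 26, 28, 2, 29, 2, 1 and 5 in yth1-R59C, pfs2-F115H, ssu72D, dis2D, ppn1D, swd22D, PAS-T4A, PAS-T4C and PAS-T4G, and 69 of the 70 named calls held. Under the minimum of 1 CPM, 451 of the 891 members were not tested.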

Other observations

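Among the members too low to be tested, 2 had no read in any wt library and at least 3 reads in each of the 3 libraries of a mutant, both in ssu72D. SPNCRNA.1219 had 6, 5 and 6 reads (1.05, 1.16 and 2.92 CPM) in ssu72D and *prl15* had 10, 11 and 4 reads (1.75, 2.55 and 1.95 CPM), against 0 reads in wt for both. These RNAs were picked for their counts, and no test was made.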
